A study of Mus musculus with 16 samples.

Results

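Potassium channel genes outside the inward rectifier (Kcnj) family were followed across the cell clusters of the mouse spinal cord before and after a dorsal column lesion at C5. Members were the gene symbols of the deposited count matrix that consist of Kcn, lower-case letters and a number and do not start with Kcnj, which gave 77 of 55487 symbols. The data are droplet single-cell RNA sequencing of 18203 cells from 16 mice aged 8-10 weeks, with unique molecular identifiers (UMIs) counted near the 3′ end of transcripts. WT mice were Ryk+/+,GFAPcreERT2 and cKO mice were Rykfl/fl,GFAPcreERT2, so both carried the tamoxifen-inducible Cre driven by the GFAP promoter. Both genotypes were given tamoxifen and were taken uninjured (labelled Sham) or at 1 d, 7 d or 14 d after the lesion, with 2 mice in each of the 8 conditions. The Cre acts in cells with GFAP promoter activity, so Ryk was targeted in astrocytes and not in the whole cord.

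Potassium channels set the resting potential and end the action potential, and each subfamily does so at another place or time. Kv1 channels lie beside the nodes of Ranvier under the myelin sheath. Some Kv7 channels carry the M-current that limits repetitive firing, and Kv4 channels with KChIP subunits carry the fast A-type current of dendrites. Calcium-activated BK and SK channels couple calcium entry to repolarization, and K2P channels carry the leak current of glia, vessels and neurons.

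The targeted gene was read first. Ryk, summed over the 3 astrocyte clusters (2, 5 and 7) and given as counts per 1000000 UMIs (CPM), was 123 and 54.0 in the uninjured WT mice and 66.1 and 85.1 in the uninjured cKO mice. At 1 d it was 101 in the single WT mouse with enough cells and 23.0 (1 UMI of Ryk) and 69.0 in the cKO mice. At 7 d Ryk was 157 and 116 in WT and 90.1 and 119 in cKO mice, and at 14 d it was 105 and 108 in WT and 121 and 123 in cKO mice. The genotypes overlapped in uninjured mice and at 7 d, both cKO mice were lower than the WT mouse at 1 d, and at 14 d both cKO mice had more Ryk than both WT mice. Because 3′ tags need not fall in the deleted exons, the genotype labels cannot be checked by these values.

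Several libraries stood apart from the rest or went against their labels. The library of WT 1 d replicate 2 held 1 cell and was left out, so 15 mice were analysed and WT at 1 d is 1 mouse. In 6 mice, all of them replicate 2, the condition in the names of the cells was another one than that of the sample title, and the titles were used. The batch given in the cell table equals the replicate number in every mouse. The UMIs per analysed mouse ranged from 536263 to 9008729. The replicate 1 libraries from 1 d and 7 d, of both genotypes, had a median of 414 to 548 UMIs per cell, against 1040.5 to 3637 in the other analysed mice. Barcodes found in more than 1 of the 16 libraries numbered 166, in 44 pairs of libraries. WT 1 d replicate 1 and WT 7 d replicate 1 shared 115, of which 108 lay in the same cluster in both libraries. cKO 1 d replicate 1 shared 71 with the latter and 69 with the former. Cells with a shared barcode made up 11.6% of WT 1 d, 10.1% of WT 7 d, 6.21% of cKO 1 d and 2.30% of cKO 7 d replicate 1, the analysed libraries with the fewest UMIs per cell.

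Cell types were those the authors deposited, as 17 numbered clusters. Summed levels of fixed marker lists, other than that for ependymal cells, were highest in a cluster of the matching name. The 6 markers of astrocytes came to 14687 CPM in Cluster 5 and 11021 CPM in Cluster 7, and the 5 markers of oligodendrocytes to 51836 CPM in Cluster 8 and 33973 CPM in Cluster 4. Cluster 2, named astrocytes, had fewer markers of astrocytes than these (7769 CPM) and held 20945 CPM of markers of oligodendrocytes, mostly Mbp (14693 CPM), and 780 CPM of the neuronal Snap25. Cluster 13, named Unk in the deposited cell table, had the highest level of ependymal markers (2752 CPM, 4 of 4 detected), while the next cluster had 37.4 CPM. Clusters are compared below as description without a test, because they were made from the same values. A member's level is its CPM in a cluster of 1 mouse, where that cluster held 10 cells or more. Its enrichment is the log2 ratio to the mean of the other clusters of the same mouse with 50 CPM added.

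All 77 members matched 1 gene each of the GENCODE annotation of the mm10 build. They held 144950 of 53347673 UMIs, or 0.272%. Kcnd2, Kcnip4, Kcnq3 and Kcnma1 together held 47.4% of the members' UMIs, which is a share of the tags and not an order of expression. Of the 77 members, 31 had at least 1000 UMIs in all cells, 22 had fewer than 100, and 59 had at least 30 UMIs in some cluster.

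An enrichment of at least 1 on the log2 scale was found for 50 pairs of member and cluster, which involved 33 members. With 10 CPM added in place of 50 there were 86 pairs of 47 members. Only members with at least 30 UMIs in a cluster could count there, and their number differed between clusters. With 50 CPM added, 17 of 54 such members reached the ratio in neurons, 9 of 32 in OPC (oligodendrocyte precursors) and 8 of 26 in astrocytes of Cluster 7. Oligodendrocytes of Cluster 4 had 4 of 37 and Schwann cells 4 of 8. Cluster 13 had 3 of 20, microglia of Cluster 6 2 of 13, fibroblasts 2 of 13 and astrocytes of Cluster 5 1 of 34. None reached it of 28 in endothelial cells, 20 in pericytes and 23 in Cluster 2. The same held for 15 in oligodendrocytes of Cluster 8, 10 in microglia of Cluster 10 and 5 in immune cells. The share of all genes that reach this ratio was not computed.

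**Figure D1:**
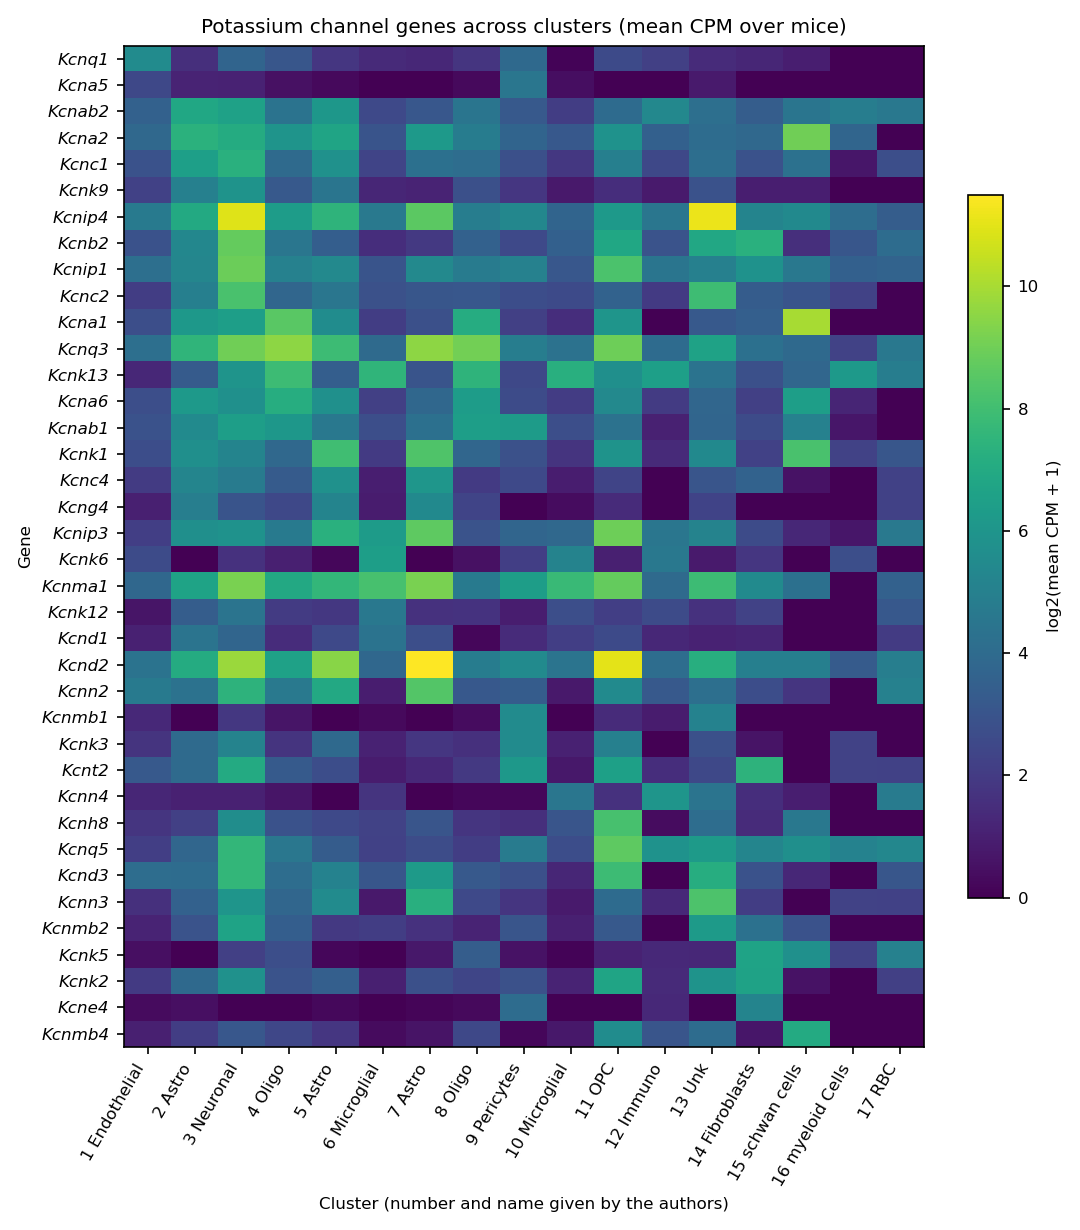
Mean level over mice of named members that lead at least 1 cluster, by cluster, with genes down the side, the 17 clusters of the authors across, and colour for log2 of the mean CPM plus 1. Kcnd2 is bright in Cluster 7 (2892 CPM) and Cluster 11 (2074 CPM), and Kcna1 in Cluster 15 (1012 CPM).

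Kv1 subunits form the juxtaparanodal channels of myelinated axons, and Kcna1 (Kv1.1) is their best known member. In the 5 mice with enough Schwann cells, Kcna1 was at 669 CPM in WT 14 d replicate 1, 1461 CPM in WT 7 d replicate 1, 450 CPM in cKO 1 d replicate 2, 1413 CPM in cKO 14 d replicate 1 and 1066 CPM in cKO 7 d replicate 2. All 5 lay above the mean of the other clusters of their mouse, with a mean of 1012 ± 447 CPM and a log2 ratio of 3.24 ± 0.59 (SD, n = 5). In oligodendrocytes of Cluster 4 the lowest, median and highest values of Kcna1 were 131, 345 and 690 CPM over 15 mice, with a log2 ratio of 1.92 ± 0.62. In oligodendrocytes of Cluster 8 Kcna1 was at 138 ± 80.9 CPM (n = 14), and in neurons at 86.5 ± 49.2 CPM (n = 15). Endothelial cells had 5.86 ± 5.24 CPM (n = 15) and astrocytes of Cluster 7 5.97 ± 9.15 CPM (n = 15) of Kcna1.

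Kcna2 (Kv1.2), which coassembles with Kv1.1, was likewise highest in Schwann cells. Its values there were 390, 474, 487, 574 and 664 CPM in the 5 mice, with a log2 ratio of 2.57 ± 0.37. Cluster 2 had 164 ± 97.4 CPM (n = 11) of Kcna2, neurons 134 ± 53.4 CPM (n = 15) and oligodendrocytes of Cluster 4 61.0 ± 38.0 CPM (n = 15). Kcna6 (Kv1.6) was highest in oligodendrocytes of Cluster 4, where its lowest, median and highest values were 74.6, 122 and 243 CPM (log2 ratio 1.27 ± 0.37, above the other clusters in each of 15 mice). In the annotation Kcna1 (chromosome 6, 126640397 to 126646384), Kcna6 (126708329 to 126740674) and Kcna5 (126532551 to 126535412) are neighbours on the minus strand. Kcna5, known in vascular smooth muscle, had its highest level in pericytes at 21.7 ± 19.2 CPM (n = 15). Kcna3 and Kcna4 were sparse, with 25 and 128 UMIs in all cells.

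The cytoplasmic β-subunit Kcnab2, a partner of Kv1 channels, was at 116 ± 76.8 CPM (n = 11) in Cluster 2 and 93.3 ± 28.5 CPM (n = 15) in neurons, which overlapped. Other leading members of Cluster 2 were Kcna2, Kcnc1 and Kcnk9, with log2 ratios from 0.41 to 0.74. Of these, Kcnc1 and Kcnk9 had a higher mean level in neurons, and Kcna2 in Schwann cells. Markers of oligodendrocytes and neurons were also high in Cluster 2, as given above, and their part in these levels was not tested.

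Kv4 channels carry A-type current. Kcnd2 (Kv4.2) was the most enriched member of astrocytes in Cluster 7, with lowest, median and highest values of 2094, 2885 and 4151 CPM over 15 mice. The log2 ratio was 3.00 ± 0.48 (SD), and all 15 mice lay above the mean of their other clusters. OPC had 902, 1840 and 4109 CPM as lowest, median and highest values of Kcnd2 (log2 ratio 2.21 ± 0.40, n = 14), which overlapped the range of Cluster 7. Neurons followed at 869 ± 477 CPM (n = 15), while endothelial cells had 19.7 ± 13.0 CPM (n = 15). Kcnd3 (Kv4.3) was highest in OPC at 235 ± 92.4 CPM (n = 14) and in neurons at 192 ± 96.0 CPM (n = 15), and these overlapped.

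Kcnd2 in Cluster 5, another astrocyte cluster, fell into separate ranges by library. Normalized CPM here and below are CPM after edgeR's scaling of library sizes (TMM). In replicate 1 they were 2192 in WT uninjured, 1322 in WT 1 d, 930 in cKO 1 d, 1202 in WT 7 d and 1322 in cKO 7 d. Replicate 2 gave 200 in WT uninjured, 318 in cKO uninjured, 251 in cKO 1 d, 213 in WT 7 d and 291 in cKO 7 d. At 14 d Kcnd2 was at 280 and 280 in WT and at 273 and 357 in cKO mice. The replicate 1 mice that were uninjured or at 1 d and 7 d did not overlap with the other mice. In Cluster 5 of these 5 mice the 5 markers of oligodendrocytes summed to 2421, 1620, 3568, 2205 and 3660 CPM in the same order, against 8587 to 18287 CPM in the other mice, which did not overlap either. Their part in the level of Kcnd2 was not tested. In Cluster 7 Kcnd2 at 1 d and 7 d was at 2253, 2879, 2522 and 2491 in replicate 1 and at 2797, 3931 and 3615 in replicate 2, which overlapped.

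KChIPs are calcium-binding subunits that bring Kv4 channels to the surface. Kcnip4 was enriched in Cluster 13, where the lowest, median and highest values were 728, 1992 and 3897 CPM (log2 ratio 2.89 ± 0.74, n = 10). In neurons the corresponding values of Kcnip4 were 559, 1233 and 5812 CPM (log2 ratio 2.79 ± 0.85, n = 15), so both clusters overlapped widely. Kcnip4 spans 1135 kb, and 24 other annotated genes overlap it on its own strand, so tags could be split with them. Kcnip3 was highest in OPC at 502 ± 176 CPM (n = 14), followed by astrocytes of Cluster 7 at 395 ± 107 CPM (n = 15) and of Cluster 5 at 154 ± 59.2 CPM (n = 14). Kcnip1 was instead highest in neurons, at 486 ± 232 CPM (n = 15), followed by OPC at 306 ± 161 CPM (n = 14).

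Kv2 and Kv3 channels are delayed rectifiers of neurons, and Kv3 channels allow fast firing. Kcnb2 (Kv2.2) in neurons had lowest, median and highest values of 118, 396 and 874 CPM, and a log2 ratio of 2.51 ± 0.88 (n = 15). Kcnc2 (Kv3.2) was at 294 ± 212 CPM (n = 15) in neurons and 242 ± 129 CPM (n = 10) in Cluster 13. Kcnc1 (Kv3.1) was highest in neurons at 154 ± 48.3 CPM (n = 15). Kcnc4 (Kv3.4) was highest in astrocytes of Cluster 7 at 65.5 ± 30.6 CPM (n = 15) and of Cluster 5 at 54.6 ± 25.6 CPM (n = 14), with 26.4 ± 11.9 CPM (n = 15) in neurons.

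Kv7 genes include those of the M-channel subunits. Kcnq3 (Kv7.3) had lowest, median and highest values of 420, 668 and 1122 CPM in astrocytes of Cluster 7 (log2 ratio 1.48 ± 0.38, n = 15). Oligodendrocytes of Cluster 4 had 166, 775 and 1146 CPM of Kcnq3 (log2 ratio 1.43 ± 0.46, n = 15), and the ranges overlapped. Kcnq5 (Kv7.5) was highest in OPC at 396 ± 192 CPM (n = 14). Kcnq1 (Kv7.1), the leading member of endothelial cells, had 22.8, 41.7 and 81.2 CPM as lowest, median and highest values there. Its log2 ratio was 0.79 ± 0.18, and it lay above the other clusters in each of 15 mice. On its own strand 8 other annotated genes overlap Kcnq1, so tags could be split with them.

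Among the EAG, ERG and ELK genes, Kcnh8 (an ELK channel) was the most enriched member of OPC, with lowest, median and highest values of 174, 275 and 426 CPM and a log2 ratio of 2.47 ± 0.34 (n = 14). Neurons had 48.1 ± 26.0 CPM (n = 15) of Kcnh8, and no other cluster had a mean above that. Kcnh5 was at 114 ± 46.2 CPM (n = 14) in OPC and 90.8 ± 90.8 CPM (n = 15) in neurons. Kcnh7 (184 ± 93.5 CPM) and Kcnh1 (132 ± 77.7 CPM) were highest in neurons (n = 15 each).

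Kcnma1 encodes the pore of the BK channel, which opens with calcium and depolarization. It was at 582 ± 175 CPM (n = 15) in neurons and 578 ± 147 CPM (n = 15) in astrocytes of Cluster 7, followed by OPC at 443 ± 190 CPM (n = 14) and microglia of Cluster 6 at 288 ± 99.6 CPM (n = 14). Kcnmb1, the β1 subunit of vascular smooth muscle BK channels, was the leading member of pericytes, with 23.7, 45.5 and 90.7 CPM as lowest, median and highest values (log2 ratio 0.85 ± 0.30, above the other clusters in each of 15 mice), while pericytes had 84.4 ± 38.5 CPM (n = 15) of Kcnma1. Kcnmb1 (chromosome 11, 33963013 to 33973641) lies inside Kcnip1 (33629339 to 33993152) on the opposite strand. Clusters 5 and 7 held 152 and 172 UMIs of Kcnip1 and 0 of Kcnmb1, and pericytes 145 of the 223 UMIs of Kcnmb1. Kcnmb2, an inactivating β subunit, was highest in neurons at 99.4 ± 50.1 CPM (n = 15). Kcnmb4, the neuronal β4 subunit, was at 47.6 ± 34.8 CPM (n = 14) in OPC. In Schwann cells Kcnmb4 was at 0, 34.1, 47.8, 69.1 and 487 CPM in the 5 mice on 39 UMIs, so 1 mouse carried most of its mean.

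Among small-conductance calcium-activated channels, Kcnn2 (SK2) was highest in Cluster 7, with lowest, median and highest values of 129, 361 and 519 CPM (log2 ratio 2.13 ± 0.50, n = 15), and neurons had 171 ± 47.4 CPM (n = 15). Kcnn3 (SK3) was highest in Cluster 13 at 307 ± 104 CPM (n = 10), followed by Cluster 7 at 153 ± 31.7 CPM (n = 15). Kcnn4 (KCa3.1), the intermediate-conductance channel of leukocytes, led immune cells of Cluster 12 with 62.3 ± 80.1 CPM (n = 10) on 46 UMIs, and microglia of Cluster 10 had 21.6 ± 33.0 CPM (n = 14) on 43 UMIs and those of Cluster 6 2.36 ± 2.82 CPM (n = 14). Of the sodium-activated channels, Kcnt1 (Slack) was highest in neurons at 144 ± 62.0 CPM (n = 15). Kcnt2 (Slick) was highest in fibroblasts at 174 ± 116 CPM (n = 9), and neurons at 130 ± 110 CPM (n = 15) overlapped with them.

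K2P genes encode leak channels. Kcnk1 (TWIK-1), described in astrocytes, had lowest, median and highest values of 171, 290 and 529 CPM in Cluster 7 (log2 ratio 1.99 ± 0.43, above the other clusters in each of 15 mice). In Cluster 5 the corresponding values of Kcnk1 were 122, 216 and 617 CPM (log2 ratio 1.49 ± 0.56, above the other clusters in each of 14 mice). Schwann cells had 150, 172, 191, 221 and 731 CPM of Kcnk1 in the 5 mice, and endothelial cells 5.63 ± 7.12 CPM (n = 15). Kcnk2 (TREK-1), also described in astrocytes, was at 104 ± 48.0 CPM (n = 14) in OPC and 6.05 ± 6.73 CPM (n = 15) in Cluster 7. Kcnk10 (TREK-2) was at 112 ± 54.8 CPM (n = 14) in OPC and 34.7 ± 15.6 CPM (n = 15) in Cluster 7, and Kcnk4 (TRAAK) had 76 UMIs in all cells.

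Kcnk13 (THIK-1), known as the channel that sets the resting potential of microglia, had similar levels in oligodendrocytes and microglia. Its lowest, median and highest values were 140, 205 and 394 CPM in oligodendrocytes of Cluster 4 (n = 15) and 122, 190 and 242 CPM in microglia of Cluster 6 (n = 14), which overlapped. Oligodendrocytes of Cluster 8 had 178 ± 110 CPM (n = 14) and microglia of Cluster 10 152 ± 60.3 CPM (n = 14) of Kcnk13, while endothelial cells had 1.45 ± 2.17 CPM (n = 15). Kcnk6 (TWIK-2), described in microglia and macrophages, was highest in Cluster 6, with 41.1, 88.3 and 153 CPM as lowest, median and highest values (log2 ratio 1.27 ± 0.40, n = 14). Kcnk5 (TASK-2) was highest in fibroblasts at 101 ± 75.9 CPM (n = 9) and Kcnk3 (TASK-1) in pericytes at 46.1 ± 33.8 CPM (n = 15), and both overlapped with other clusters. Of the silent subunits, which form no channel alone, Kcng4 was at 42.5 ± 29.7 CPM (n = 15) in Cluster 7 and 36.0 ± 23.2 CPM (n = 14) in Cluster 5.

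Astrocyte Clusters 5 and 7 were compared within mice. Of 36 members with at least 30 UMIs in Cluster 5 or Cluster 7, 16 were on average higher in Cluster 7 and 20 in Cluster 5. Kcnd2 (log2 difference 2.54 ± 1.37, SD), Kcnq3 (1.72 ± 0.69) and Kcnma1 (1.65 ± 0.94) were higher in Cluster 7 in all 14 mice with both clusters, and Kcnn2 (1.51 ± 0.93) in 12 of 14. Kcnab2 (−0.87 ± 0.67) and Kcna6 (−0.65 ± 0.46) were higher in Cluster 7 in 0 of 14 mice. Members higher in Cluster 7 had a median genomic span of 152 kb and those higher in Cluster 5 one of 73.4 kb. Spearman's rho between span and difference was 0.495 across the 36 genes, which come from the same libraries and are not independent. Cells of Cluster 7 had a median of 2882 UMIs and those of Cluster 5 of 1377, and the part of depth was not tested. Markers of oligodendrocytes summed to 13318 CPM in Cluster 5 (5 of 5 detected, mostly Mbp) and 1858 CPM in Cluster 7. Markers of neurons summed to 880 CPM (6 of 6 detected, mostly Snap25) and 77.6 CPM, and the part of these cells in the differences was not tested.

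**Figure D2:**
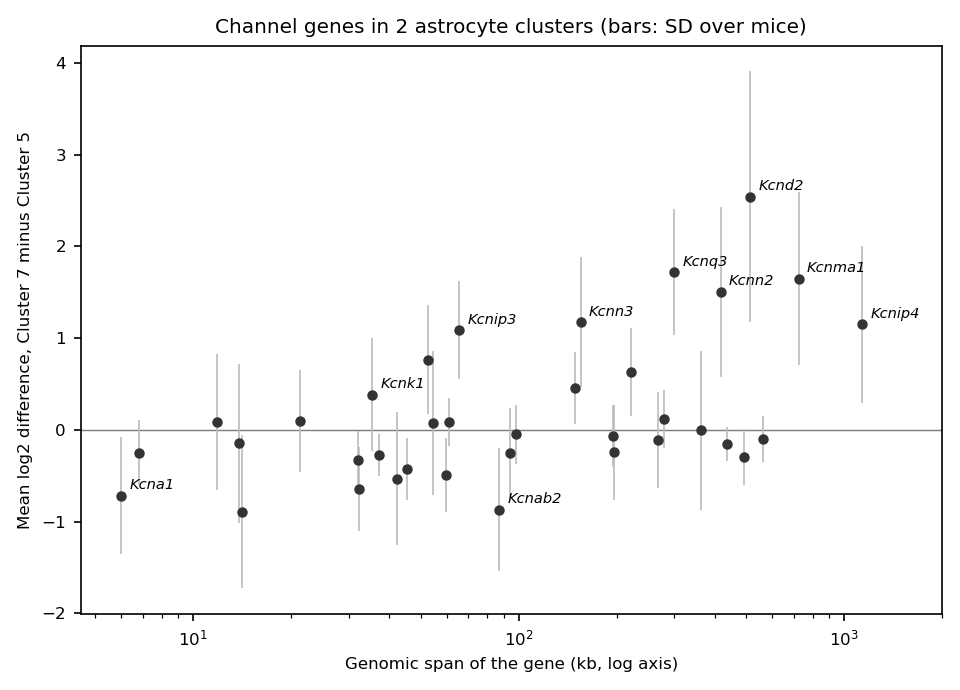
Genomic span of 36 members (kb, log axis) against the mean log2 difference of their level between Cluster 7 and Cluster 5 within mice, with bars for the SD over 14 mice and 50 CPM added to each value. Kcnd2 has the largest difference at 2.54 and spans 514 kb.

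The study asked how the cord responds over time after injury and how Ryk in astrocytes bears on it. Mice at each time were compared with uninjured mice by edgeR's quasi-likelihood test on UMIs summed per mouse and cluster. In 10 clusters the numbers of mice sufficed, and 39 members passed the filter on low counts in at least 1 of them, in 122 pairs of member and cluster. Neurons had 35 tested members, Cluster 5 and Cluster 7 18 and 16, OPC 16 and endothelial cells 11. The other clusters had 9 or fewer.

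No member passed the quasi-likelihood test of edgeR (Benjamini-Hochberg) at 0.05 at any time. At 1 d, 0 of 122 pairs were called by edgeR, against 0.105% of all gene and cluster pairs, while 8 had an unadjusted p under 0.05 and 0 were called by DESeq2. At 7 d, edgeR called 0, against 0.0613% of all pairs, with 8 at an unadjusted p under 0.05 and 0 called by DESeq2. At 14 d, edgeR called 0, against 0.209% of all pairs, with 12 at an unadjusted p under 0.05 and 1 (Kcnk1 in Cluster 7) called by DESeq2. Unadjusted p-values under 0.05 made up 6.56%, 6.56% and 9.84% of member pairs at 1 d, 7 d and 14 d. Of all pairs they made up 6.52%, 7.52% and 8.58%. Without WT uninjured replicate 1, edgeR called 0, 1 and 1 of 127 member pairs, against 0.256%, 0.677% and 0.954% of all pairs. Unadjusted p-values under 0.05 were then found for 12.6%, 15% and 16.5% of member pairs. The shares of all pairs were 9.05%, 13.4% and 13.3%.

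Kcnk1 in astrocytes of Cluster 7 had the smallest p of any member. Its normalized CPM were 597 and 678 in uninjured WT mice and 316 and 458 in uninjured cKO mice. At 1 d Kcnk1 was at 290 in the WT mouse and at 360 and 396 in the cKO mice, and at 7 d at 397 and 280 in WT and at 372 and 274 in cKO mice. At 14 d it was at 253 and 194 in WT and at 311 and 292 in cKO mice. All 4 mice at 14 d were lower than all 4 uninjured mice, with cKO uninjured replicate 1 close to the highest of them, and the mice at 1 d and 7 d overlapped with the uninjured ones. The log2 difference at 14 d was −0.98 (SE 0.23, 512 ± 159 to 263 ± 51.6, n = 4 each), with an adjusted p of 0.100 by the quasi-likelihood test of edgeR (Benjamini-Hochberg). DESeq2 called it (adjusted p of 0.0165 after Benjamini-Hochberg adjustment, beside the quasi-likelihood test of edgeR), and over all alternatives the adjusted p ranged from 0.0154 to 1 with the same sign in each. Within the batches Kcnk1 at 14 d was at −0.70 (SE 0.33) in the first and −1.17 (SE 0.26) in the second. The 5 markers of oligodendrocytes summed to 1310, 2579, 1226 and 2880 CPM in Cluster 7 of the uninjured mice and to 1136, 1931, 1264 and 1401 CPM at 14 d (WT, then cKO), and their part in the result was not tested. In Cluster 5 Kcnk1 at 14 d (371, 255, 273 and 182) overlapped with the uninjured mice (675, 220 and 277).

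Kcna2, an axonal Kv1 gene, had the smallest p of the members tested in neurons. It was at 283 and 345 normalized CPM in uninjured WT mice and at 137 and 291 in uninjured cKO mice. At 1 d Kcna2 was at 64.8, 132 and 125, at 7 d at 154, 97.8, 82.8 and 168, and at 14 d at 90.4, 126, 137 and 101 (WT, then cKO). All mice at 1 d and 14 d lay below the uninjured mice, and the nearest mice at 14 d and uninjured were almost equal. The log2 difference of Kcna2 at 14 d was −1.16 (SE 0.30, 264 ± 89.0 to 114 ± 21.7, n = 4 each), and the adjusted p of the quasi-likelihood test of edgeR (Benjamini-Hochberg) was 0.0553. With a replicate block in edgeR's quasi-likelihood test the adjusted p (Benjamini-Hochberg) was 0.0479, and over all alternatives it ranged from 0.000432 to 1. Within the batches Kcna2 at 14 d was at −0.69 (SE 0.41) in the first and −1.32 (SE 0.30) in the second.

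Kcna1 in neurons at 14 d (90.4, 60.0, 49.4 and 68.1 normalized CPM) was below all uninjured mice (147, 169, 95.2 and 105), with a log2 difference of −0.95 (SE 0.31, adjusted p of 0.127 by the quasi-likelihood test of edgeR (Benjamini-Hochberg)). The markers of oligodendrocytes summed to 6685, 11513, 7113 and 12500 CPM in neurons of the uninjured mice and to 5407, 6133, 7319 and 6009 CPM at 14 d, and their part in the values of Kcna1 and Kcna2 was not tested.

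**Figure D3:**
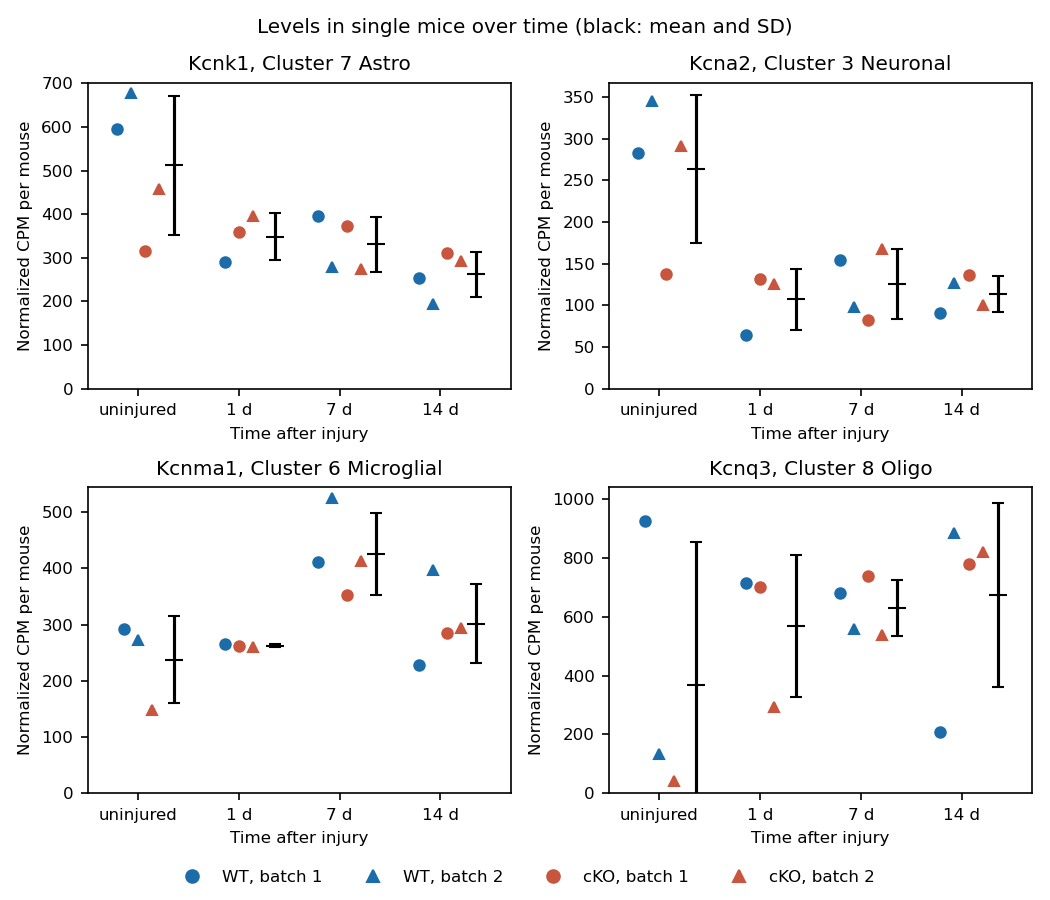
Normalized CPM in single mice by time for Kcnk1 in Cluster 7, Kcna2 in neurons, Kcnma1 in microglia of Cluster 6 and Kcnq3 in oligodendrocytes of Cluster 8, with colour for genotype, shape for batch, and black bars for the mean and SD. Kcnk1 at 14 d lies between 194 and 311, while Kcnq3 in uninjured mice spans 41.7 to 927.

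In other glia Kcnma1 in microglia of Cluster 6 was at 292, 273 and 148 normalized CPM in 3 uninjured mice, at 266, 262 and 260 at 1 d, at 411, 526, 353 and 413 at 7 d and at 229, 398, 285 and 295 at 14 d. The mice at 7 d were all higher than the uninjured ones, and those at 14 d overlapped with them. The log2 difference of Kcnma1 at 7 d was 0.87 (SE 0.28, adjusted p of 0.499 by the quasi-likelihood test of edgeR (Benjamini-Hochberg)), 0.30 within the first batch and 1.25 within the second. In Cluster 7 Kcnd3 was at 43.7, 18.6, 71.8 and 59.7 in uninjured mice and at 129, 108 and 111 at 1 d, all higher (log2 difference 1.37, not called). Kcnk10 in Cluster 7 at 14 d (43.1, 75.8, 62.3 and 52.4) was above the uninjured mice (31.8, 9.29, 43.1 and 19.9), with the nearest mice almost equal (not called). In pericytes Kcnt2 was higher in all 3 mice at 1 d (115, 184 and 137) than in uninjured mice (50.2, 46.3, 35.9 and 16.3), on 26 and 16 UMIs (not called). In endothelial cells Kcnn2 was at 86.4, 22.7, 60.9 and 22.3 in uninjured mice and at 17.8, 15.9, 13.1 and 18.8 at 14 d, lower in each mouse and not called.

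The batches were tested apart, as a choice made after seeing the data. Within the first batch, 0 of 80 pairs of member and cluster were called at 1 d (0.582% of all pairs), 0 at 7 d (0.569%) and 6 at 14 d (3.08%) by the quasi-likelihood test of edgeR (Benjamini-Hochberg). By edgeR 14, 12 and 13 pairs had an unadjusted p under 0.05 (17.5%, 15% and 16.2%, against 9.26%, 7.96% and 12.1% of all pairs), and DESeq2 was not run within batches. Within the second batch, 2 of 220 pairs were called at 1 d (1.84% of all pairs), 22 at 7 d (7.18%) and 34 at 14 d (8.84%), while 38, 61 and 68 had an unadjusted p under 0.05 (17.3%, 27.7% and 30.9%, against 11.3%, 18.6% and 20.8% of all pairs). At 1 d the second batch is 1 mouse, cKO 1 d replicate 2, which is assumed to vary like the other groups. All 4 mice of the second batch that enter the contrast at 14 d, uninjured and injured, are among the 6 whose cell names give another condition. No pair was called in both batches. Of the 56 calls at 7 d and 14 d in the second batch, 33 could be tested in the first batch, where 14 had the same sign, and of the 6 calls of the first batch 1 had the same sign in the second.

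Kcnq3 in oligodendrocytes of Cluster 8 was at 927 normalized CPM in the uninjured mouse of the first batch and at 132 and 41.7 in those of the second. At 1 d Kcnq3 was at 715, 701 and 292, at 7 d at 681, 559, 739 and 540, and at 14 d at 209, 886, 779 and 820 (WT, then cKO). Against uninjured mice of the same batch, the log2 difference at 14 d was −1.35 (SE 0.60) in the first batch and 3.31 (SE 0.64) in the second, where the quasi-likelihood test of edgeR (Benjamini-Hochberg) gave an adjusted p of 4.06e-05, and over all alternatives it ranged from 4.06e-05 to 1. The value of the first batch rests on 1 uninjured mouse, assumed to vary like the other groups, and on mice at 14 d that lay far apart. In Cluster 4 Kcnq3 was at 1036 and 1183 in uninjured mice of the first batch and at 524 and 255 in those of the second, and at 747, 1067, 900 and 1031 at 14 d. The calls of the first batch were Kcnd2, Kcnma1, Kcnn2 and Kcnq3 in Cluster 5 and Kcnd2 and Kcnma1 in OPC. All were lower at 14 d. In either cluster 1 uninjured mouse of the first batch entered, which is assumed to vary like the other groups. The animal numbers in the sample titles place the replicate 1 mice at 14 d beside the replicate 2 mice and apart from the other replicate 1 mice, so time and series of animals cannot be told apart within the first batch. Kcnd2 in OPC was at 5798 in that mouse and at 1837 and 1353 in the uninjured mice of the second batch.

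Ryk cKO and WT mice were compared after injury, averaged over the 3 times. Of 122 pairs 0 were called by the quasi-likelihood test of edgeR (Benjamini-Hochberg), against 0.00192% of all pairs, and 0 by DESeq2. By edgeR 9 had an unadjusted p under 0.05 (7.38%, against 3.48% of all pairs). By DESeq2 1 pair did (0.82%, against 1.12% of all pairs). When each mouse was left out, the lowest member share by edgeR was 2 of 117 pairs, without cKO 7 d replicate 2 (1.71%, against 2.78% of all pairs). The highest share was 9.4%, found without cKO 1 d replicate 1 (against 4.2% of all pairs) and without WT 7 d replicate 2 (against 6.21%). The interaction of genotype and injury called 0 of 122 pairs by edgeR, against 0% of all pairs, and 0 by DESeq2. By edgeR 11 pairs had an unadjusted p under 0.05 (9.02%, against 4.37% of all pairs). By DESeq2 7 pairs did (5.74%, against 1.44% of all pairs). The smallest p of the interaction by edgeR was that of Kcnn2 in Cluster 7. There uninjured mice had 589 and 464 normalized CPM in WT and 230 and 318 in cKO. After injury WT mice had 129, 510, 323, 410 and 435 of Kcnn2, and cKO mice 360, 329, 258, 578, 492 and 460. By the sample titles the genotypes were apart in uninjured mice and overlapped after injury. The log2 difference of differences was 1.54 (SE 0.44, adjusted p of 0.603 by the quasi-likelihood test of edgeR (Benjamini-Hochberg)). In the cell names WT uninjured replicate 2 is cKO uninjured and cKO uninjured replicate 2 is WT 7 d. The separation in uninjured mice therefore depends on the titles. WT at 1 d is 1 mouse in these contrasts.

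The wider machinery was read from a list of 25 genes for sodium pump subunits, cation-chloride cotransporters, HCN channels and proteins that hold Kv channels in place, of which 18 were tested in 111 pairs. At 1 d, 7 d and 14 d 0 pairs were called by the quasi-likelihood test of edgeR (Benjamini-Hochberg). Called pairs over all genes were 0.105%, 0.0613% and 0.209%. An unadjusted p under 0.05 was found for 9, 9 and 10 of the 111 pairs, and for 6.52%, 7.52% and 8.58% of all pairs. Of these pairs of the list, 2 were higher and 7 lower at 1 d, 3 higher and 6 lower at 7 d, and 4 higher and 6 lower at 14 d. Cntnap2 (Caspr2), which holds Kv1 channels at the juxtaparanode, was at 1634 ± 774 CPM (n = 15) in neurons. Dpp6, a Kv4 partner, was at 1195 ± 478 CPM (n = 15) in neurons, and Dpp10 at 403 ± 189 CPM (n = 14) in OPC.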

How the data were processed

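Single-cell RNA was measured in cells of the spinal cord of 16 mice, in 8 conditions of 2 mice. The authors aligned reads to mm10 with Cell Ranger and clustered cells with Seurat in R 4.1.2, and the version of Cell Ranger is not given. The deposited matrix holds raw UMI counts of 18203 cells and 55487 symbols, with the authors' clusters and batch in a deposited cell table. Members and gene lists were chosen with earlier results of these data known.

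UMI counts were summed per mouse and cluster where at least 10 cells were present. No doublets were removed here, and the sources used do not name a removal by the authors. Levels are CPM as mean ± SD over mice. Enrichment is the log2 ratio to the mean of the other clusters of the same mouse with 50 CPM added, and members needed at least 30 UMIs in the cluster. Times were compared with edgeR 4.0.16 (TMM, filterByExpr by time, quasi-likelihood test, time + genotype) in R 4.3.3. Benjamini-Hochberg adjustment at 0.05 ran over all genes of a cluster and comparison. DESeq2 1.42.0 was run as an alternative. Tables used pandas 2.3.3, scipy 1.17.1 and numpy 2.4.6, and figures matplotlib 3.10.9, under Python 3.11.15. The fitting code was tested on simulated data. Coordinates are those of GENCODE vM21.

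The UMIs per analysed mouse ranged from 536263 to 9008729, so low levels in the shallow mice rest on few UMIs. WT 1 d replicate 2 (1 cell) was left out. The replicates were checked for pairing: the median correlation between replicate differences of the conditions was from 0.0360 to 0.299 per cluster, and the lowest single value was −0.513, and mice were fitted as unpaired with a replicate block as an alternative. Genes are named if called, if among the 5 most enriched members of a cluster, if among the 3 members with the smallest p in a tested cluster, or if known from textbooks, and a few genes that meet this are not named. Alternatives were another test, no filter on low counts, at least 30 cells, a replicate block, the conditions of the cell names, group means, each mouse left out, pooled UMIs, cells with at least 1000 UMIs, earlier clusters and 10 CPM added. Fits within each batch, without the mice named otherwise and without shared barcodes were chosen after seeing the data.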

Additional observations from a re-analysis of the deposited data

Results flagged for a closer look

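Groups of 4 mice at a time were looked at for a single mouse far from the other 3. This was done for the members with the smallest p, up to 3 in each tested cluster. The 75 groups were thus picked by p from the same values. In them 4 values stood apart, while chance flags about 1 in 20 groups that are not picked. These values came from 2 mice, both replicate 1 at 14 d. Kcnq1 in endothelial cells was at 76.6 normalized CPM in WT 14 d replicate 1, against 35.9 to 41.9 in the other mice. Kcnab2 in endothelial cells was at 5.63 in cKO 14 d replicate 1, against 8.75 to 8.91. Kcnn2 in Cluster 5 was at 30.3 in WT 14 d replicate 1, against 59.1 to 64.5. Kcnq3 in Cluster 8 was at 209 in WT 14 d replicate 1, against 779 to 886.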

How the results depend on the processing

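No member was called in the cKO and WT comparison or in the interaction under the alternatives run for them, which leave out group means, the fits within batches and the fit without WT 1 d replicate 1. At 1 d edgeR called 0 member pairs, and 1 of 646 without a filter on low counts (0.155%, against 0.164% of all pairs). The calls within the second batch, where 1 d is 1 mouse, are given above. At 7 d it called 0, and 1 of 646 without the filter (0.155%, against 0.228% of all pairs). Within the second batch it called 22 of 220 (10%, against 7.18% of all pairs). Leaving out each mouse in turn gave 0 to 1 at 7 d, with 1 of 127 without WT uninjured replicate 1 (0.787%, against 0.677% of all pairs). At 14 d it called 0, and 1 with at least 30 cells, 1 with DESeq2, 1 with group means, 1 with a replicate block, 2 without the filter, 6 within the first batch and 34 within the second batch. Leaving out each mouse gave 0 to 2 at 14 d, with 2 of 125 without cKO uninjured replicate 1 (1.6%, against 0.526% of all pairs).

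The 50 pairs of member and cluster with a log2 ratio of at least 1 became 86 with 10 CPM added, 63 with UMIs pooled over mice (48 of them among the 50), and 47 to 52 when each mouse was left out.

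Of 702 values of 30 results of a gene in a cluster under an alternative, 675 kept their sign and their side of the threshold whatever their size, 17 kept their sign and passed the test, 0 kept their sign and no longer passed, and 10 were reversed. Reversed log2 differences were those of Kcnab1 at 1 d in Cluster 4 (−2.24 to 0.39 when each mouse was left out) and in Cluster 8 (1.89 with group means, 6.66 within the second batch, −1.73 to 6.14 when each mouse was left out). Kcnq3 in Cluster 8 at 14 d was −1.35 within the first batch and −1.06 without the mice named otherwise. Within the second batch Kcnma1 (−0.20) and Kcnab1 (−0.84) in Cluster 9 at 14 d were reversed, and within the first batch Kcnma1 in Cluster 10 at 14 d (−0.39). Kcnk6 in Cluster 10 at 7 d was −1.26 without the mice named otherwise. The fits within batches, without the mice named otherwise and without shared barcodes were chosen after seeing the data, and the cause of the differences was not tested.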
